A study of Rattus norvegicus with 12 samples.

Results

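The insulin receptor substrates are a small family of adaptor proteins encoded by Irs1, Irs2, Irs3 and Irs4. They were examined here in primary midbrain astrocytes treated with PT109B, a compound known only by this code name. The members were the genes of the deposited table whose symbol is Irs1, Irs2, Irs3 or Irs4, which gave 3 of 9721 genes: Irs1 (ENSRNOG00000014597), Irs2 (ENSRNOG00000023509) and Irs3 (ENSRNOG00000001389). Irs4 was not analysed here. The genes were taken by symbol, but the family was chosen by its levels, with those of Irs3 in these libraries known, so the levels and changes of the Irs genes are given as a description, with no test. The cells came from newborn wild-type SD (Sprague-Dawley) rats and were grown in medium with serum. There were 12 libraries in 4 groups of 3, a control group at 0 h and groups kept with 10 µM PT109B for 1.5, 3 and 6 h, within work on converting astrocytes to dopaminergic neurons. The labels name no vehicle, and no label places the libraries of a group in separate cultures, so the spread between them may be technical.

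Insulin receptor substrates are phosphorylated on tyrosine by the activated insulin and IGF1 receptors. The phosphorylated sites dock the regulatory subunit of PI3-kinase and the adaptor Grb2, which pass the signal to Akt and to the Ras pathway, and serine phosphorylation and SOCS proteins limit it. Irs1 and Irs2 are made in most tissues, the brain included. Irs3 is a shorter member that works in rodents, where it is best known from adipocytes, and its human counterpart is a pseudogene.

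The stretch of DNA just before the start of a gene is shown for the members whose levels moved in different directions. RefSeq (assembly GRCr8) gave the 250 bases before the start for 2 of the 3 members, with Irs2 not matched. The sequences are written 5′ to 3′ in the direction of the gene, and capitals mark each GC box, GGGCGG on either strand.
Irs3, chr12:24689680-24689929, plus strand: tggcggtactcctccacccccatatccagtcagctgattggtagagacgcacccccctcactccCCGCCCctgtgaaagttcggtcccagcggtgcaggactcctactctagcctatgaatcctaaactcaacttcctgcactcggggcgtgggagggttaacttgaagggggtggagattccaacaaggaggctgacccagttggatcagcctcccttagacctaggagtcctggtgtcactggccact
Irs1, chr9:91053960-91054209, minus strand: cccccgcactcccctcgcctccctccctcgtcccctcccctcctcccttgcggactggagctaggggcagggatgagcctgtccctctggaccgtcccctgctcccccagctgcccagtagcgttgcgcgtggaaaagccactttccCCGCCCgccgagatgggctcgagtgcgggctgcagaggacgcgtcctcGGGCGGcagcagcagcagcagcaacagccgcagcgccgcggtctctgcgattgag
The Irs1 window was 70.8% G or C and the Irs3 window 58.0%, against a median of 51.2% over all windows of this length. Irs1 had GC boxes beginning 103 and 55 bases before the start, and Irs3 had 1 beginning 186 bases before it. A GC box was present in 30.467% of 33469 windows. The other motifs searched on both strands, TGACGTCA (1.587% of windows), TGACTCA (4.046%), GTAAACA (3.215%), GCGTGGGCG (0.478%) and CACGTG (5.593%), were not among the letters of these windows. GCGTGGGCG can share bases with a GC box, none of the motifs contains another, and a match describes the sequence only.

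The libraries held 9368967 to 12498047 counts over the genes of the table. Levels are given as CPM, counts scaled to the TMM-adjusted library size, and, for comparisons between genes, as FPKM, which also divides by length. Of 12 astrocyte markers 10 were in the table, and none was at 0 in all 12 libraries. For the marker lists below, none at 0 has the same meaning. The summed CPM of the astrocyte markers was 7211 to 10990 in the controls, and 7965, 7521 and 11620 in replicates 1 to 3 at 1.5 h. At 3 h it was 7729 to 10070, and at 6 h 5711 to 7144, below every control. Their mean log2 CPM at 6 h, 7.95 to 8.07, was within the 7.75 to 8.25 of the controls. In each treated group 1 library stood apart from the others and nearer to the control: replicate 3 at 1.5 h, replicate 3 at 3 h and replicate 1 at 6 h. At 1.5 h the split was in microglial genes (17 of 17 markers in the table, none at 0), whose summed CPM was 2954 to 3603 in the controls, 370.5 and 363.3 in the first pair of replicates but 3814 in replicate 3. At 3 and 6 h it was in 20 mitosis genes, whose summed CPM was 1745 to 2393 in the controls, 139.7 to 182.5 in 4 of the libraries and 1351 and 1293 in the libraries standing apart. Endothelial markers (8 of 10 in the table, none at 0) split in all 3 treated groups. Their summed CPM was 208.5 to 248.0 in the controls and 65.5, 55.9 and 195.0 in replicates 1 to 3 at 1.5 h. At 3 and 6 h it was 190.7 and 166.2 in the libraries standing apart and 95.8 to 103.1 in the others. Neuron markers (8 of 10, none at 0) had a summed CPM of 275.9 to 336.4 in the controls. It was 298.5 to 337.3 in the libraries standing apart and 489.4 to 750.8 in the other treated libraries. Their mean log2 CPM was 4.14 to 4.52 in the controls and 5.30 and 5.23 in replicates 1 and 2 at 1.5 h. In the 3 and 6 h libraries not standing apart it was 3.88 to 4.08, below every control. The higher sum in those libraries was therefore not shared by all neuron markers. Fibroblast markers (9 of 12 in the table) had summed CPM of 4544 to 6065 in the controls, 4676 to 5287 in the libraries standing apart and 8755 to 13090 in the other treated libraries. Oligodendrocyte lineage markers (10 of 12 in the table, none at 0) had summed CPM of 814.9 to 849.1 in the controls. Their sum was 728.9 to 773.3 in the libraries standing apart and 956.2 to 1251 in the other treated libraries. Their mean log2 CPM was 4.20 to 4.62 in the controls, and 5.75 and 5.84 in replicates 1 and 2 at 1.5 h. In the 3 and 6 h libraries not standing apart it was 3.59 to 4.09, below every control. In such bulk libraries, fewer cells of a type and less RNA per cell cannot be told apart.

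Irs3 transcripts were lower than in the control at 1.5 h, near the control at 3 h and above it at 6 h. Irs3 stood at 6.93, 8.86 and 5.90 CPM in control replicates 1 to 3, and at 2.92, 2.51 and 4.33 CPM at 1.5 h. All 3 libraries at 1.5 h were below the lowest control, with replicate 3 the nearest to it. At 3 h Irs3 stood at 7.77, 5.61 and 7.42 CPM, which overlapped the control values. At 6 h it stood at 11.04, 14.1 and 14.3 CPM, with every library above the highest control. The groups at 1.5, 3 and 6 h did not overlap one another. The share of all genes separated in this way was not counted, so nothing is read from this separation.

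The group means of Irs3 were 7.23 ± 1.50 CPM in the control (SD, n = 3), 3.25 ± 0.955 at 1.5 h, 6.93 ± 1.16 at 3 h and 13.1 ± 1.81 at 6 h. Against control this was a log2 fold change of -1.16 ± 0.28 (SE) at 1.5 h, or 2.23-fold lower. At 3 h the log2 fold change was -0.06 ± 0.27, and at 6 h it was 0.86 ± 0.27, or 1.81-fold higher. Between 1.5 and 6 h the mean of Irs3 differed 4.04-fold, a log2 difference of 2.01 ± 0.28. Of all 9491 genes tested, 15.1% had every 1.5 h library below every control and 28.2% had every 6 h library above every control, and nothing is read from these shares. Irs3 was a gene of few reads: its lowest count was 29, with a 95% exact Poisson interval of 19.4 to 41.7, and its highest was 137, with an interval of 115 to 162. These intervals cover counting error only.

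**Figure D1:**
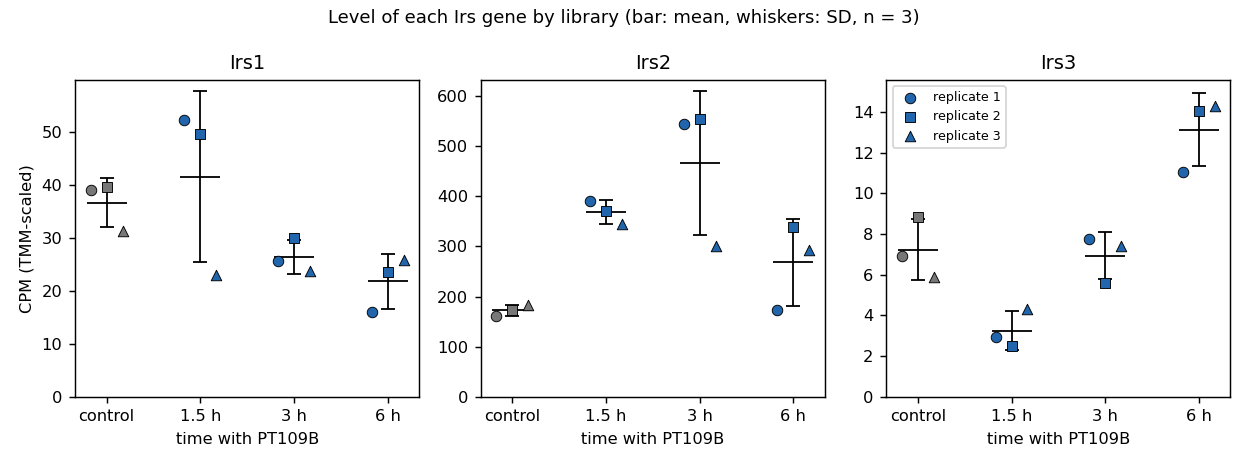
CPM of Irs1, Irs2 and Irs3 in each library (points, 3 per group) against time with PT109B, with the group mean (bar) and SD (error bar). The Irs3 points fall below every control at 1.5 h and lie above every control at 6 h, while those of Irs2 are above every control at 1.5 and 3 h.

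The direction of Irs3 at 1.5 and 6 h was also that of the libraries standing apart. Replicate 3 at 1.5 h, with microglial markers at the control level, had 4.33 CPM of Irs3, below each control. Replicate 1 at 6 h, with mitosis genes at 1293 CPM, had 11.04 CPM of Irs3, above each control. Without the 3 libraries standing apart, the log2 fold changes of Irs3 were -1.43, -0.18 and 0.88 at 1.5, 3 and 6 h. The fall at 1.5 h was smaller in the library that kept its microglial markers, and the part of these cells in the size of that difference was not tested. Of 12 adipocyte markers, 5 were in the table, none at 0: Fabp4, Lpl, Cfd, Retn and Lipe. Their summed CPM at 1.5 h was 41.9, 41.7 and 594.7 in replicates 1 to 3, against 491.6 to 549.7 in the controls. This followed the split of the microglial markers, at 370.5, 363.3 and 3814 CPM. Their sum was 183.9, 206.4 and 400.7 CPM at 3 h and 350.5, 182.8 and 152.1 CPM at 6 h. These values at 3 and 6 h were below every control. The part of adipocytes in the Irs3 levels was not tested. Adipoq, Plin1, Pparg, Lep and Cidec, which define adipocytes, were not analysed here.

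Irs3 shares its place in the genome with another gene. In the RefSeq gene table Irs3 overlaps the span of Agfg2, a gene for an Arf GTPase activating protein family member, on the same strand. Reads of the 2 genes may therefore have been divided by the counting, and the Irs3 counts are uncertain to that degree. No RefSeq gene overlapped Irs1 or Irs2. Agfg2 stood at 32.5 ± 0.530 CPM in the control, 32.9 ± 4.39 at 1.5 h, 75.9 ± 20.6 at 3 h and 58.6 ± 4.65 at 6 h (SD, n = 3). Its log2 fold changes were 0.02 ± 0.18, 1.22 ± 0.18 and 0.85 ± 0.18, with adjusted p-values of 0.962, 0.00119 and 0.00533 (edgeR). At 1.5 and 3 h the log2 fold changes of the genes differed, with Irs3 at -1.16 and -0.06, while at 6 h they were close, with Agfg2 at 0.85 and Irs3 at 0.86. Over the 12 libraries Pearson's r of their log2 CPM was 0.51, as a description, and how reads were divided between them was not tested. The ratio of Irs3 to Agfg2 CPM was 0.182 to 0.277 in the controls, 0.0678 to 0.130 at 1.5 h, 0.0745 to 0.123 at 3 h and 0.193 to 0.257 at 6 h. Of the 5 nearest genes on each side of Irs3, 4 were in the table, and apart from Agfg2 these were Nyap1, Lrch4 and Pcolce, none of which passed the test at any time (edgeR adjusted p of 0.0530 to 0.757).

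Irs2 was the most abundant member, and its level was above the control at 1.5 and 3 h. It stood at 162.0, 172.5 and 183.9 CPM in the control replicates, and at 390.9, 371.7 and 344.4 CPM at 1.5 h, where all 3 libraries were above the highest control. At 3 h Irs2 stood at 545.1, 554.2 and 301.0 CPM, again above every control, with replicate 3 well under the other libraries of its group. At 6 h it stood at 172.7, 339.5 and 292.4 CPM, so that replicate 1 was inside the control range and the other libraries above it. The group means of Irs2 were 172.8 ± 10.9 CPM in the control, 369 ± 23.4 at 1.5 h, 467 ± 144 at 3 h and 268 ± 86.0 at 6 h (SD, n = 3). The log2 fold changes were 1.09 ± 0.27, 1.43 ± 0.27 and 0.63 ± 0.26, or 2.14-fold, 2.70-fold and 1.55-fold higher. Every library lay above every control in 12.9% of all genes tested at 1.5 h and in 23.4% at 3 h.

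Within the treated groups the low Irs2 libraries at 3 and 6 h were those with mitosis genes nearer to the control level, and the part of this difference in the Irs2 values was not tested. Without the 3 libraries standing apart the log2 fold changes of Irs2 were 1.14, 1.61 and 0.78. At 1.5 h, where microglial genes split the group, the 3 Irs2 values were within 344.4 to 390.9 CPM. In order of level, the control and the 6 h group overlapped, the 6 h group was below the 1.5 h group in all 3 libraries, and the 1.5 h and 3 h groups overlapped. The share of all genes separated between the 6 h and 1.5 h groups was not counted.

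Irs1 was lower than in the control at 3 and 6 h, and its libraries at 1.5 h lay on both sides of the control. It stood at 39.0, 39.6 and 31.3 CPM in the controls, and at 52.2, 49.6 and 22.9 CPM in replicates 1 to 3 at 1.5 h. At 1.5 h replicates 1 and 2 were above the highest control and replicate 3 below the lowest. This was the same split as that of the microglial, endothelial, adipocyte, neuron, fibroblast and oligodendrocyte lineage markers, whose part in this result was not tested. At 3 h Irs1 stood at 25.7, 29.9 and 23.7 CPM, and at 6 h at 16.0, 23.6 and 25.8 CPM, with every library of both groups below every control. The share of all genes tested with every library below every control was 24.3% at 3 h and 27.5% at 6 h.

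The group means of Irs1 were 36.6 ± 4.61 CPM in the control, 41.6 ± 16.2 at 1.5 h, 26.4 ± 3.17 at 3 h and 21.8 ± 5.15 at 6 h (SD, n = 3). The log2 fold changes were 0.18 ± 0.28, -0.47 ± 0.29 and -0.75 ± 0.29, and at 3 and 6 h the means were 1.39-fold and 1.68-fold lower. At 1.5 h the log2 fold change was -0.01 without replicate 1 and 0.47 without replicate 3, so that single libraries decided its sign. The 3 h and 6 h groups overlapped each other, and the 1.5 h group overlapped all others. Without the libraries standing apart the log2 fold changes of Irs1 were 0.47, -0.46 and -0.66.

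The scale used for the libraries shifted these values. Under scaling by library size alone, the median log2 fold change over all genes moved by -0.07, -0.31 and -0.22 at 1.5, 3 and 6 h. At 3 h Irs1 then stood at -0.79 and Irs3 at -0.37 on the log2 fold change scale, differences from the TMM values close to that shift of the median gene. The direction of each Irs gene was the same under all 4 scalings of counts. From the mean FPKM, the log2 ratios to control at 1.5, 3 and 6 h were 0.11, -0.76 and -0.96 for Irs1, 1.02, 1.12 and 0.42 for Irs2, and -1.23, -0.34 and 0.66 for Irs3.

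Per length, the order of Irs1 and Irs3 differed between the groups. In the controls Irs3 had 2.65, 3.39 and 2.24 FPKM and Irs1 3.03, 3.08 and 2.42 FPKM, so that the members overlapped. At 1.5 h Irs3 had 1.06, 0.916 and 1.56 FPKM and Irs1 3.86, 3.67 and 1.68 FPKM, with Irs1 above Irs3 in all 3 libraries. At 3 h they overlapped again, with Irs3 at 2.26, 1.67 and 2.63 FPKM and Irs1 at 1.51, 1.81 and 1.71 FPKM. At 6 h Irs3 had 4.02, 4.44 and 4.59 FPKM and Irs1 1.18, 1.51 and 1.68 FPKM, with Irs3 above Irs1 in all 3 libraries. The ratio of Irs3 to Irs1 FPKM was 0.968 ± 0.119 in the control, 0.485 ± 0.385 at 1.5 h, 1.32 ± 0.343 at 3 h and 3.02 ± 0.345 at 6 h (SD, n = 3). The wide spread of this ratio at 1.5 h came from replicate 3, at 0.929 against 0.275 and 0.249 in replicates 1 and 2.

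Irs2 was above both other members in every library, with 12.8 to 14.5 FPKM in the controls, 25.7 to 29.5 at 1.5 h, 22.1 to 34.2 at 3 h and 13.0 to 22.2 at 6 h. Its share of the summed FPKM of the 3 genes was 71.0% ± 4.13 in the control, 86.8% ± 1.73 at 1.5 h, 88.0% ± 3.87 at 3 h and 75.3% ± 3.71 at 6 h (SD, n = 3). In every library at 1.5 and 3 h this share exceeded that of each control and each 6 h library. The share of Irs3 was 14.3% ± 2.56 in the control, 3.76% ± 1.42 at 1.5 h, 6.85% ± 2.82 at 3 h and 18.6% ± 3.21 at 6 h. The summed FPKM of the family was 19.3 ± 0.830 in the control, 32.0 ± 2.83 at 1.5 h, 33.6 ± 6.25 at 3 h and 24.0 ± 5.17 at 6 h. Across all genes of the table the mean FPKM of Irs2, 22.3, was above that of 77.1% of genes, while those of Irs3, 2.62, and Irs1, 2.26, were above 25.7% and 23.3%.

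**Figure D2:**
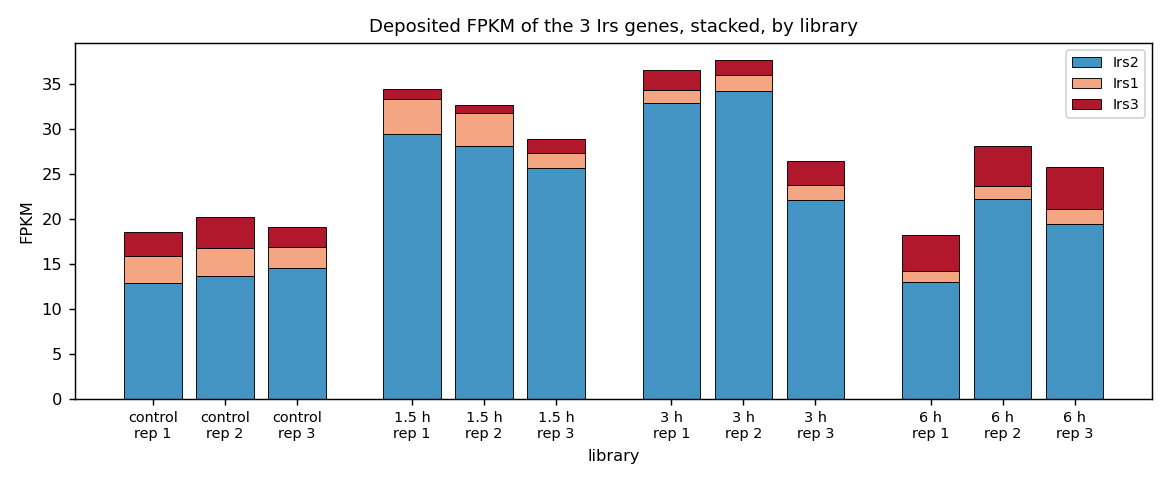
FPKM of Irs1, Irs2 and Irs3 stacked in each of the 12 libraries, in order of group and replicate. Irs2 makes up the largest piece in every library, and the Irs3 piece is larger than that of Irs1 in all 3 libraries at 6 h.

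The members did not follow each other across libraries. As a description over 12 libraries, which share their groups and their splits, Pearson's r of log2 CPM was 0.06 between Irs1 and Irs2, -0.66 between Irs1 and Irs3 and -0.31 between Irs2 and Irs3. Among 8789 genes with a mean of at least 2 CPM, the nearest patterns to Irs3 were those of Slc66a2 (r = 0.965), Scn4b (0.960), Rnf150 (0.953), Trim27 (0.943) and Hif1an (0.940). Slc66a2 had mean levels of 16.96, 8.59, 21.1 and 36.2 CPM in the control and at 1.5, 3 and 6 h. Scn4b, a sodium channel beta subunit, had 31.3, 15.1, 33.7 and 77.0 CPM, which like Irs3 was lowest at 1.5 h and highest at 6 h. The most opposite patterns were those of Tspan12 (-0.965), Erlin2 (-0.963), Crebrf (-0.963), Ppp6r2 (-0.962) and Kif26b (-0.949).

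By the same measure, applied to the other members after their values were seen, the patterns nearest to Irs2 included those of Hspa1a, an inducible heat shock protein (r = 0.986), Mdm2, the ubiquitin ligase of p53 (0.975), Fam8a1 (0.962) and Dusp16 (0.952). Mdm2 had mean levels of 172.9, 371.0, 530.5 and 278.4 CPM over the 4 groups, next to 172.8, 369, 467 and 268 CPM of Irs2. The patterns nearest to Irs1 were those of Kank2 (0.962), Crb2 (0.961), Sorbs2 (0.961), Magi1 (0.956) and Tgfb3 (0.952).

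**Figure D3:**
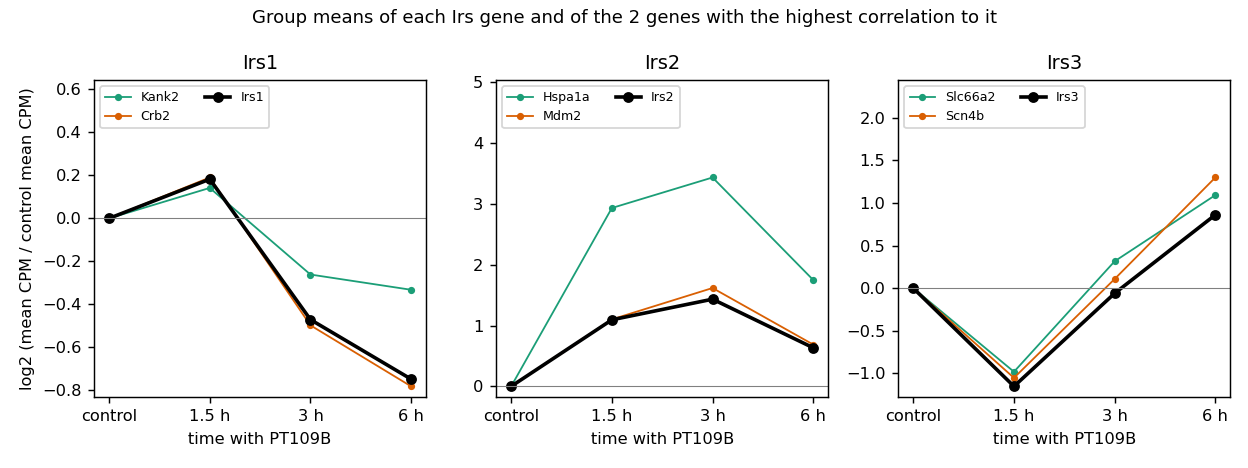
Log2 ratio of the group mean CPM to the control mean for each Irs gene (thick black line) and the 2 genes with the highest correlation to it over 12 libraries (thin lines), by time with PT109B. Irs3, Slc66a2 and Scn4b are lowest at 1.5 h and highest at 6 h, and Irs2, Hspa1a and Mdm2 are highest at 3 h.

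The rest of the insulin and IGF pathway was tested with edgeR from a list of 93 genes without the Irs genes, of which 71 were measured and tested. A gene was called changed at a Benjamini-Hochberg adjusted p under 0.05 over all genes tested. At 1.5 h 3 of the 71 were higher and 0 lower (4.225%), against 3.32% of all genes (1.95% higher and 1.37% lower). At 3 h 11 were higher and 2 lower (18.31%), against 21.4% of all genes (13.5% and 7.94%), and at 6 h 13 were higher and 6 lower (26.76%), against 30.5% (18.7% and 11.8%). Between 1.5 and 6 h 18 were higher at 6 h and 11 lower (40.85%), against 37.6% (20.5% and 17.1%). The shares of the list were near those of all genes. Without replicate 3 at 1.5 h the list had 26 calls at that time, against 2871 of all genes. Without replicate 3 at 3 h it had 24, against 3697 of all genes. Leaving out any 1 of the other libraries compared gave 3 to 6 calls at 3 h, against 849 to 1017 of all genes. Leaving out any 1 control, or replicate 2 or 3 at 6 h, gave 9 or 10 at 6 h, against 1741 to 1862. Without all 3 libraries standing apart the list had 47, 54 and 54 calls, against 5642, 6756 and 7154 of all genes. Scaled by library size, the list had 2 higher and 1 lower at 1.5 h, 3 and 11 at 3 h and 7 and 12 at 6 h, with 165 and 216, 650 and 1887, and 1141 and 1799 of all genes. By limma-trend on log2(FPKM + 0.1) the list had 2 and 0, 3 and 13, and 7 and 13. All genes then had 162 and 197, 696 and 2045, and 1270 and 1979. Upper quartile scaling gave 3 and 0, 10 and 3, and 10 and 9 of the list. Of all genes it gave 184 and 97, 1106 and 925, and 1571 and 1413.

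Of the receptors that phosphorylate the Irs proteins, Insr, the insulin receptor, had 31.1, 29.0 and 38.7 CPM in the controls and 43.9, 64.7 and 59.2 CPM at 6 h. It rose by 0.76 ± 0.16 on the log2 scale at 6 h (edgeR adjusted p = 0.00599). Igf1r, the IGF1 receptor, had a log2 fold change of 0.49 ± 0.18 at 6 h (edgeR adjusted p = 0.0667). Of the ligands, Igf1 and Igf2 passed the test against control at no time (edgeR adjusted p of 0.0837 to 0.946).

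Among 12 other adaptors, 4 rose and 1 fell at 6 h (41.67%, against 30.5% of all genes). Shc3, which couples receptors to Grb2, had 47.8 ± 4.40 CPM in the control and 112.3 ± 6.81 at 6 h (SD, n = 3), a log2 fold change of 1.23 ± 0.12 (edgeR adjusted p = 8.356e-05). Nck2 (1.21 ± 0.16, adjusted p = 0.000447) and Dok1 (1.04 ± 0.14, adjusted p = 0.000557), also adaptors of tyrosine kinases, rose at 6 h with Irs3 (edgeR). Of 14 genes of the PI3-kinase and Akt steps, 1 rose and 3 fell at 6 h (28.57%, near the 30.5% of all genes), among them Pik3ca, the catalytic subunit p110 alpha, by -0.58 ± 0.10 (edgeR adjusted p = 0.00176). Akt1 had a log2 fold change of -0.38 ± 0.11 at 6 h (edgeR adjusted p = 0.0254), a call that was lost without control replicate 1 or control replicate 2.

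Of 24 genes that limit the signal, 3 were called at 1.5 h, all higher (12.5%, against 3.32% of all genes), 5 at 3 h (20.83%, against 21.4%) and 7 at 6 h (29.17%, against 30.5%). Trib1, a pseudokinase, had 55.1 ± 5.82 CPM in the control and 330.2 ± 25.3 at 1.5 h (SD, n = 3), where Irs2 was also raised, a log2 fold change of 2.58 ± 0.26 (edgeR adjusted p = 0.000336). Ddit4, an inhibitor of mTORC1, rose by 1.12 ± 0.16 at 1.5 h (edgeR adjusted p = 0.00351). Enpp1 was the third called at 1.5 h (edgeR adjusted p = 0.0484), and with the replicate numbers as a block its adjusted p was 0.0513, and its call was also lost without any 1 control or without replicate 1 or 2 at 1.5 h. The block left 201 genes called at 1.5 h in place of 315. Of 19 target genes of FOXO factors, which Akt keeps out of the nucleus, 1 was higher and 1 lower at 1.5 h, 3 and 2 at 3 h, and 3 and 5 at 6 h (10.53%, 26.32% and 42.11%, against 3.32%, 21.4% and 30.5% of all genes). Of these targets Trib1 was higher at all 3 times, while Pdk4, whose product inhibits the pyruvate dehydrogenase complex, was lower at all 3 times, with log2 fold changes of -2.98, -3.32 and -4.10 (edgeR adjusted p = 8.72e-05, 3.505e-05 and 1.341e-05).

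**Figure D4:**
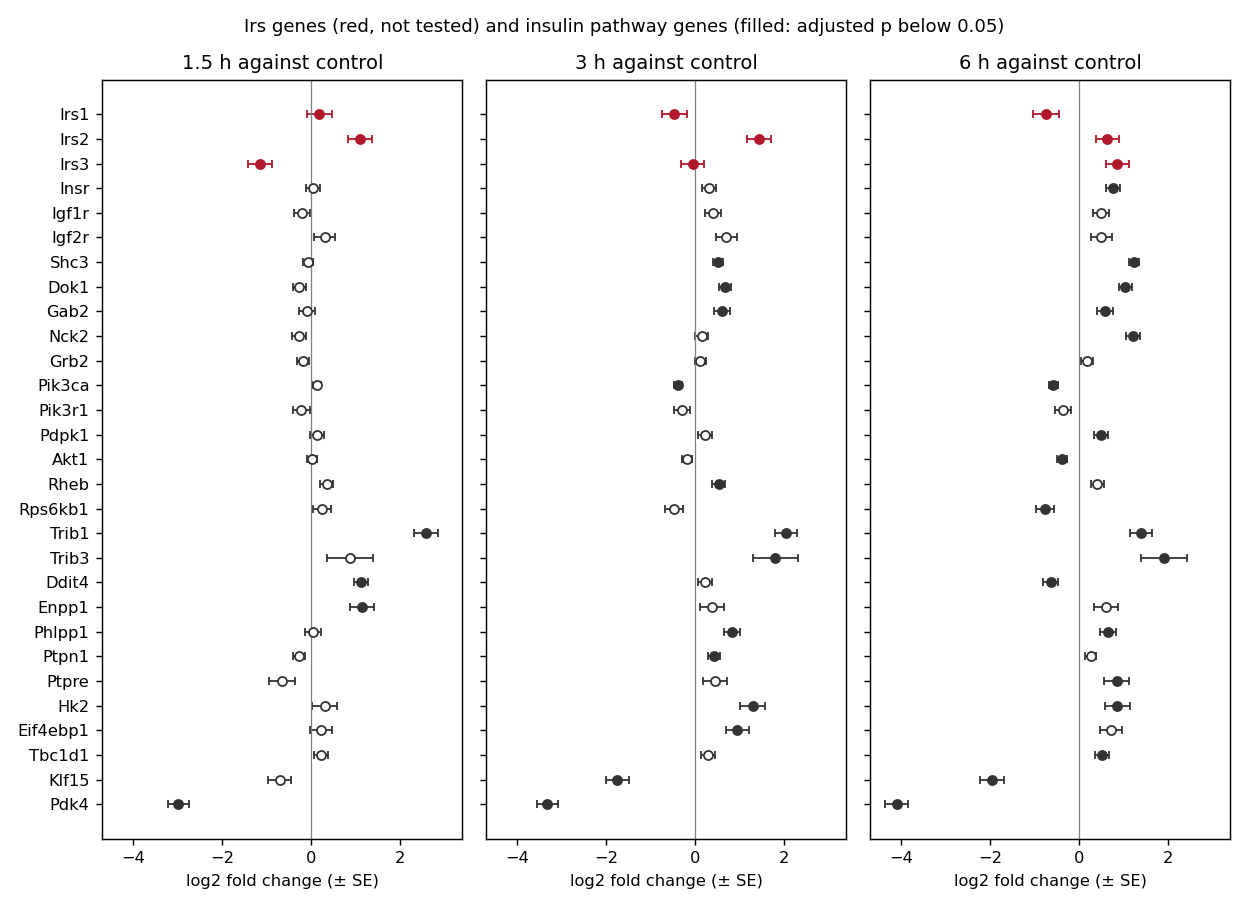
Log2 fold change against control (fitted value with SE bars) of the Irs genes, which were not tested, and of named insulin and IGF pathway genes at 1.5, 3 and 6 h with PT109B. Trib1 lies at 2.58 at 1.5 h and Pdk4 at -4.10 at 6 h, and the ligands are not drawn.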

How the data were processed

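RNA-seq values of 12 libraries were analysed, from total RNA of astrocytes extracted with TRIzol, per the labels' protocols. Per the file headers, the authors deposited for every gene an estimated count (an expected count) together with FPKM in each library. The submitters' processing notes name StringTie 2.2.1. For the aligner, build, annotation and strand setting the sources used here give nothing. Non-whole values made up 9.49% of counts, and counts were rounded before testing, where the test had been chosen for whole counts. All Irs counts were whole.

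In R 4.3.3, edgeR 4.0.16 (TMM, filterByExpr, robust quasi-likelihood test) was fitted to the 12 libraries together, with group alone in the model. The filter removed 230 genes, all 3 Irs genes passed, and 9491 genes were tested, so adjusted p-values refer to this table. Log2 fold changes used a prior count of 0.125, and each SE is the change divided by the square root of F. Log2 CPM used a prior count of 2. The script was tested on simulated data.

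The members and lists were chosen with earlier results of these data known. Genes named are the Irs genes, a fixed set, up to 3 called genes per role and time with groups that do not overlap, the uncalled gene of highest level, neighbours of Irs3, and the 5 genes most and least like Irs3. Some named by this rule are given only in counts or in the closing section, and 1 gene near Irs2 in pattern is not reported here.

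Replicate numbers come from the titles, which name no shared culture. Deviations from the group mean of same-numbered control and 1.5 h libraries correlated at 0.2, 0.368 and 0.451, while libraries of different numbers correlated at -0.443 to 0.296. The main fit, chosen earlier, has no block, and the blocked value is given where it changes a 1.5 h call or count. The correlations of same-numbered control and 3 h (-0.027 to 0.035) or 6 h (-0.024 to 0.009) libraries were lower. Those of different numbers were -0.051 to 0.044 with 3 h and -0.017 to 0.025 with 6 h libraries. Same-numbered 3 h and 6 h libraries correlated at -0.651, 0.599 and -0.657. Replicate 3 at 3 h and replicate 1 at 6 h, both standing apart, correlated at 0.794. The block by replicate number does not pair these libraries, which limits what the blocked values show. Alternatives were other scalings and filters, the block, fits of 2 groups, DESeq2 1.42.0, limma 3.58.1 (voom, and trend on log2 FPKM with pseudocounts of 1 and 0.1), and leaving out libraries. Promoter windows came from RefSeq GRCr8, which also gave the order of genes.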

Additional observations from a re-analysis of the deposited data

Results flagged for a closer look

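The change of Irs3 against control differed in direction between times. Every library at 1.5 h was below every control, as in 15.1% of all genes tested. Every library at 6 h was above every control, as in 28.2% of all genes tested. The log2 fold change at 6 h minus that at 1.5 h was 2.01, a difference that was not tested because Irs3 was chosen with its values known.

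In 18 of the 34 pathway and FOXO target genes named by the rule, the change at 6 h differed from that at 1.5 h by edgeR (adjusted p under 0.05 over all genes tested, where 37.6% of genes were called). Many of the 34 were named for their large changes against control, so their share is not comparable with that of all genes. Both changes use the same controls, so the difference is that between the treated groups. The receptors Insr and Igf1r were higher at 6 h than at 1.5 h, by log2 differences of 0.72 and 0.69. The adaptors Nck2 (1.48), Dok1 (1.30), Shc3 (1.30), Gab2 (0.66) and Grb2 (0.36) were also higher, as were the phosphatases Ptpre (1.50), Phlpp1 (0.61) and Ptpn1 (0.53). Lower at 6 h than at 1.5 h were the ligand Igf2 (-2.69), the kinases Rps6kb1 (-1.02), Pik3ca (-0.71) and Akt1 (-0.39), and Ddit4 (-1.77), Trib1 (-1.19), Klf15 (-1.25) and Pdk4 (-1.12). With 1 library left out, the calls of Igf2, Grb2, Ptpn1, Phlpp1, Gab2, Igf1r and Akt1 were lost in 2 to 4 of the fits, and Grb2 lost its call under 12 of 18 alternatives. Igf2 had 16.2 and 11.6 CPM in replicates 1 and 2 at 1.5 h but 1.01 in replicate 3, below the 1.13 to 1.94 of the 6 h libraries, and its call was lost without replicate 1 or 2 at 1.5 h or replicate 2 at 6 h. The libraries of the 1.5 h group split in microglial, endothelial, adipocyte, neuron and fibroblast markers. Those of the 6 h group split in mitosis genes, in endothelial, adipocyte and fibroblast markers and in the summed CPM of neuron markers. The part of these splits in the differences was not tested.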

How the results depend on the processing

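Irs2 at all 3 times, Irs1 at 3 and 6 h and Irs3 at 1.5 and 6 h had the same direction under every alternative run, and Irs3 at 3 h ranged from -0.37 to 0.11 on the log2 scale, above 0 only without control replicate 2 (0.11) or replicate 2 at 3 h (0.03). With log2(FPKM + 1), which understates the change of low genes, Irs3 stood at -0.79 (1.5 h) and 0.52 (6 h) and Irs2 at 0.97 (1.5 h) and 1.04 (3 h). With log2(FPKM + 0.1), Irs1 at 3 h stood at -0.72. By library size Irs1 and Irs3 at 3 h stood at -0.79 and -0.37.

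Counts of called genes moved more. Of all genes, 315 were called at 1.5 h, 201 with the replicate block, 133 with the replicate block in only those 2 groups (an alternative added after seeing the data) and 801 by DESeq2. The block lost the call of Enpp1, leaving 2 pathway genes at 1.5 h. DESeq2 called 5 pathway genes at 1.5 h and 20 at 3 h. Of the 34 named genes, 18 differed between 6 and 1.5 h, 11 in a fit of those 2 groups and 12 to 22 with 1 library left out. Without the 3 libraries standing apart, 47, 54 and 54 pathway genes and 5642, 6756 and 7154 of all genes were called at 1.5, 3 and 6 h. Socs3, not called in the main fit, then reversed in sign and was called. At 3 h it went from 0.24 (edgeR adjusted p = 0.680) to -0.21. Between 6 and 1.5 h it went from 0.16 (edgeR adjusted p = 0.781) to -0.24. The cause was not tested.

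With 1 library left out, pathway calls ranged from 2 to 26 at 1.5 h, 3 to 24 at 3 h and 9 to 26 at 6 h, and calls over all genes from 115 to 2871, 849 to 3697 and 1741 to 3868. The highest values came without replicate 3 at 1.5 h, replicate 3 at 3 h and replicate 1 at 6 h, the libraries standing apart. Of 1999 values of single named genes under alternatives, 1756 kept direction and side of the threshold, 169 lost a call, 72 gained one and 2 reversed. Irs3 counts of 29 to 137 limit its precision.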
